A study of Drosophila melanogaster with 4 samples.

Results

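Long domains are stretches of chromatin of at least 8000 bp made up of ASH1 or FSH peaks and the short gaps between them. They were found in S2-DRSC cells, a cultured line derived from Drosophila embryos, by placing the ASH1 and the FSH peaks on one map and joining every peak to the next when no more than 1000 bp lay between them. Of 7796 domains made this way, 172 reached 8000 bp, 598 measured 4000 bp to under 8000 bp and 7026 were shorter. The 172 domains were thus chosen by the measured positions and lengths of the peaks, and the peak scores come from the same comparison of ChIP with input chromatin. All values below are therefore descriptions, and no test was made on them.

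The study mapped ASH1 and FSH by ChIP-seq, that is, by sequencing the DNA recovered with an antibody from cross-linked chromatin. The labels name 4 libraries of this 1 line and no treatment, 2 antibodies per protein, called ASH1N and ASH1C for ASH1 and FSH-S and FSH-S and FSH-L for FSH. The antibody description of the submitters differs from these labels, since it gives one FSH antibody as specific for the long isoform FSH-L and the other as directed to the part that both isoforms share. The authors pooled both antibodies of a protein before they called peaks, so there is 1 peak list per protein, there are no replicates, and differences between the antibodies or between the FSH isoforms cannot be seen. Reads per peak are not part of the lists, which leaves the depth of each peak unknown, and the library totals that the study gives were not used.

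ASH1 is a histone methyltransferase of the Trithorax group, whose members help to keep genes active through cell divisions and are best known for maintaining the homeotic genes. FSH is the fly member of the BET family, which holds on to acetylated histones through a pair of bromodomains. The peak caller used here was built for sharp peaks and can report one wide stretch of signal as several peaks. Long domains show where called peaks followed each other at gaps of at most 1000 bp over at least 8000 bp, or where a single peak was that long.

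The kept chromosome arms held 10405 ASH1 peaks and 8438 FSH peaks, after 343 ASH1 peaks and 386 FSH peaks on the mitochondrial, unplaced and heterochromatic sequences had been left out. Long domains took in 709 of these ASH1 peaks (6.81%, 95% Wilson interval 6.35 to 7.31%) and 505 of the FSH peaks (5.98%, 5.50 to 6.51%). They added up to 1.97 Mb. In base pairs they held a larger share of each list than in peaks, namely 13.0% of all sequence under ASH1 peaks, and 14.1% in the case of FSH. The intervals cover counting error only and treat peaks as independent, which neighbouring peaks are not.

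Both proteins were present in 167 of the 172 long domains (97.1%). In the domains of 4000 bp to under 8000 bp, 589 of 598 held both (98.5%), and in those under 2000 bp 4004 of 5548 did (72.2%). Of the 5 long domains with a single protein, 3 held ASH1 alone and 2 held FSH alone. A domain that holds many peaks has more chances to include both proteins, so the class of 4000 bp to under 8000 bp is the closer comparison, and its share was about the same.

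Long domains had a median length of 10338.5 bp, with quartiles of 8993 and 12517 bp and a longest member of 39161 bp. ASH1 peaks covered a median of 83.1% of a domain (quartiles 75.1 and 91.3%) and FSH peaks a median of 87.9% (78.3 and 95.4%). Together the proteins left little free. A median of 95.0% of a domain lay under a peak of either protein, and the lowest value was 69.2%. A median of 75.1% (quartiles 65.5 and 83.7%) lay under both, and the highest value was 99.0%.

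Summed over all 172 domains, 1357 kb (69.0%) lay under both proteins, 185 kb (9.43%) under ASH1 alone, 304 kb (15.5%) under FSH alone and 121 kb (6.15%) under neither. ASH1 had the wider cover in 72 domains and FSH in the other 100. ASH1 covered at least 90% of the length in 48 domains and FSH in 74. Cover under 50% was rare for both, with 10 domains for ASH1 and 8 for FSH. The unbound sequence was spread over 338 gaps, the longest of 994 bp, 26 domains had no gap at all and 50 had a single one.

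**Figure D1:**
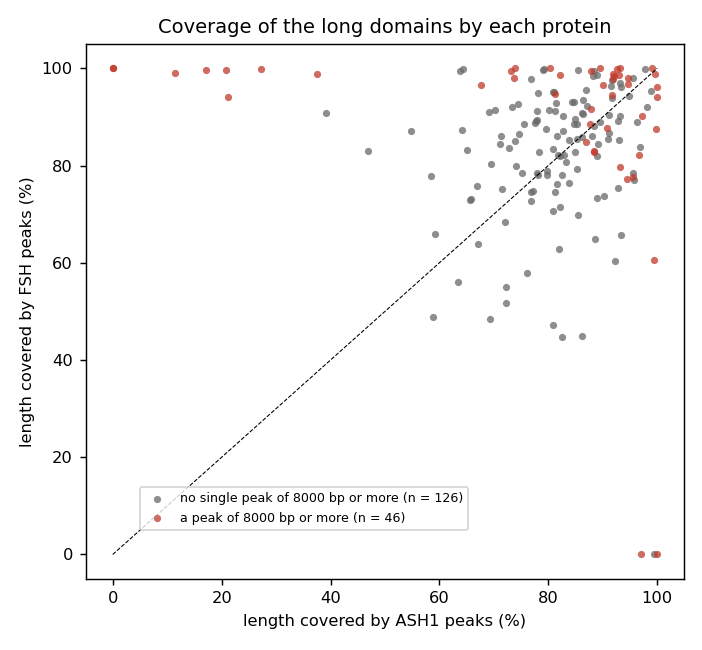
Each point is 1 of the 172 long domains, with the percentage of its length covered by ASH1 peaks on the x axis and by FSH peaks on the y axis, and colours separate the 46 domains that contain a peak of 8000 bp or more from the 126 that do not. Most points lie in the upper right corner near the medians of 83.1% for ASH1 and 87.9% for FSH, 100 domains lie above the dashed line of equal cover, and a few lie along the edges where 1 protein is missing or nearly so.

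The number of peaks differed more between the proteins than their cover did. A long domain held a median of 7 peaks (range 1 to 24), of which 4 were ASH1 peaks (0 to 14) and 3 were FSH peaks (0 to 10). ASH1 peaks outnumbered FSH peaks in 115 domains, the numbers were equal in 40 and FSH peaks were more numerous in 17. At least 5 peaks of ASH1 were found in 66 domains, and at least 5 of FSH in 21. ASH1 binding was thus cut into more and shorter peaks than FSH binding over the same stretches.

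**Figure D2:**
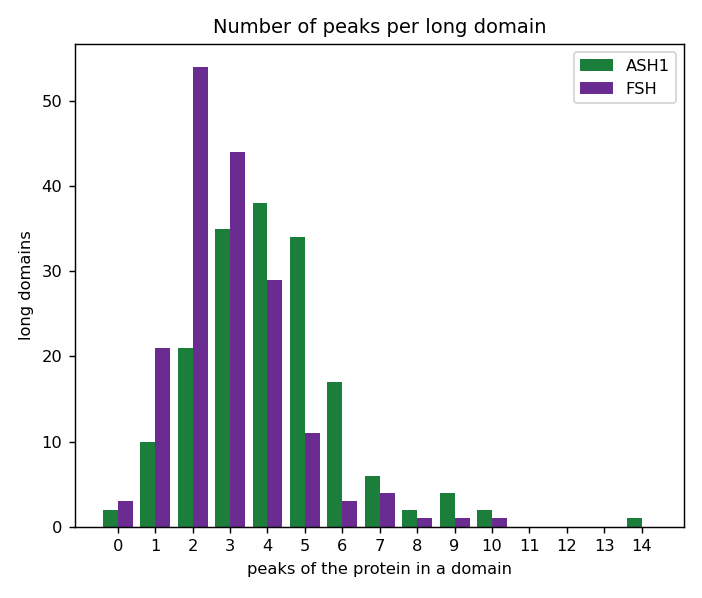
Bars give the number of long domains (y axis) that hold a given number of peaks of one protein (x axis), with ASH1 left of FSH at each number. The ASH1 bars are shifted to higher numbers, with a median of 4 peaks and up to 14, against a median of 3 and up to 10 for FSH.

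Peaks in long domains were themselves long. Their median length was 1522 bp for ASH1 and 2219 bp for FSH. In domains of 4000 bp to under 8000 bp the ASH1 median was 1256.5 bp and the FSH median 1595 bp, and in domains under 2000 bp they were 725 and 828 bp. Peak length was part of how domains were chosen, and this order is no independent finding. Peak density ran the other way, at 0.617 peaks per kb in long domains, against 0.870 in the class of 4000 bp to under 8000 bp and 1.85 in domains under 2000 bp. However short, every domain holds a peak, so the order of the densities is also partly set by the length classes.

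Some neighbouring peaks of one protein within a long domain nearly touched, while others lay far apart. The median gap between consecutive ASH1 peaks was 299 bp over 539 gaps, and that between consecutive FSH peaks was 350.5 bp over 336 gaps. The gap was wider than 1000 bp in 58 ASH1 cases and 45 FSH cases, and reached 18648 bp for ASH1 and 3545 bp for FSH. A gap of at most 100 bp was found in 139 ASH1 cases (25.8%) and 79 FSH cases (23.5%). In domains of 4000 bp to under 8000 bp such narrow gaps made up 25.6% of the ASH1 gaps and 20.4% of the FSH gaps. They are shorter than the average chromatin fragment that sonication left, according to the protocol.

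The label of clustered peaks held for most but not all members. In 126 long domains no single peak reached 8000 bp, and these had a median of 8 peaks (2 to 24) and a median length of 9930 bp. In the other 46 domains at least one peak was itself 8000 bp or longer, so that the domain would have passed the length limit without any neighbour. These had a median of 4 peaks (1 to 13) and a median length of 12745 bp. Only ASH1 had such a peak in 6 of them, only FSH in 31, and both proteins had one in 9.

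Domains with such a peak had higher median cover by each protein, and they also included 4 of the 5 domains with a single protein. Their median cover was 90.4% for ASH1 and 97.3% for FSH, against 81.8% for ASH1 and 85.4% for FSH in the 126 others, and 23 of 46 had no gap, against 3 of 126. A peak of that length fills a large part of its domain, so wide cover and few gaps are partly set by this grouping. Across all 172 domains the longest peak was an ASH1 peak in 48 and an FSH peak in 124. It made up at least 50% of the domain in 97 cases and at least 90% in 18, whereas in 43 domains no peak reached 4000 bp.

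The score of a peak is the strength that the peak caller gave it against input, read here on a -10 log10 scale of its P value. It has a floor near 50, and many of the strongest peaks are tied at 3100, so that it does not rank them. Some peaks score above 3100, up to 3233, and the lists do not show whether these are stronger than the tied ones. In long domains the median score was 1094 for ASH1 peaks and 2536 for FSH peaks. The 2 lists were called separately, and their scores are compared here only within a protein.

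Within the ASH1 list, strong peaks were about as frequent in long domains as in the next shorter classes. Within the FSH list, strong peaks were most frequent in long domains. Of the ASH1 peaks in long domains, 162 of 709 (22.8%, 19.9 to 26.1%) scored 3100 or more, against 22.5% in domains of 4000 bp to under 8000 bp, 21.9% in those of 2000 bp to under 4000 bp and 16.8% in those under 2000 bp. Of the FSH peaks in long domains, 227 of 505 (45.0%, 40.7 to 49.3%) scored 3100 or more, against 33.6% (31.0 to 36.2%), 22.2% and 9.96% in the same 3 shorter classes. From long to short domains the median scores were 1094, 1075, 988 and 698 for ASH1, and 2536, 1489, 958 and 500 for FSH. Peaks of 8000 bp or more make a long domain by themselves, and 35 of 42 such FSH peaks and 6 of 16 such ASH1 peaks scored 3100 or above. The domains were chosen by length, so these orders are no independent finding, and the intervals are no test of them.

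**Figure D3:**
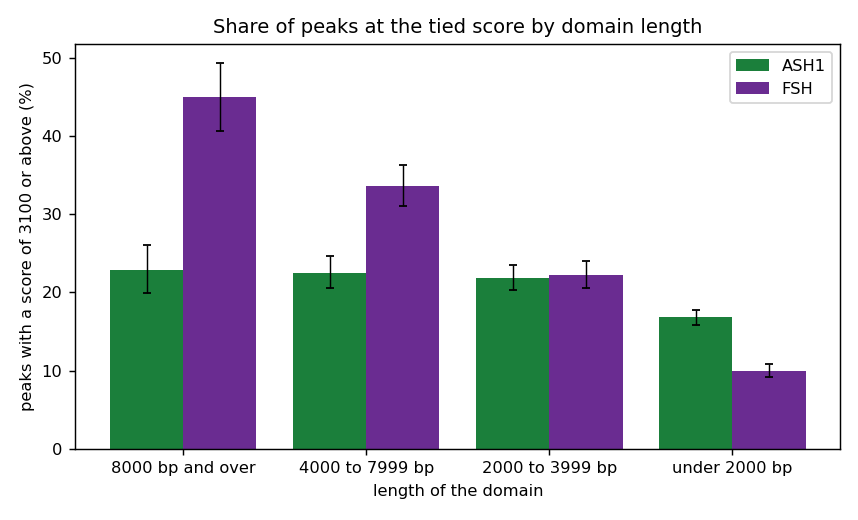
Bars give the percentage of ASH1 and FSH peaks with a score of 3100 or above (y axis) in domains of 4 length classes (x axis), and whiskers are 95% Wilson intervals over peaks. ASH1 is at 22.8% in the long domains and 16.8% in the shortest class, and FSH at 45.0% in the long domains and 9.96% in the shortest class.

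Scores and lengths of the peaks went together within long domains. The 162 ASH1 peaks at 3100 or above had a median length of 2747 bp, against 689 bp for the 70 ASH1 peaks under 100. For FSH the medians were 3954 bp for the 227 peaks at 3100 or above and 733 bp for the 35 under 100. Length and score were given by the same caller from the same reads and are not independent measures.

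At least one peak at 3100 or above was present in 118 domains for ASH1 and 145 for FSH. Both proteins reached it in 104 domains, ASH1 alone in 14, FSH alone in 41 and neither in 13. More than one such peak was seen for ASH1 in 39 domains, with at most 3, and for FSH in 70 domains, with at most 4. Among the 13 domains in which neither protein reached 3100 was a domain of 22060 bp on 3R, where the maxima were 2179 for ASH1 and 1614 for FSH.

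Peaks of very different score stood side by side in the same domain. Over the 160 domains with at least 2 ASH1 peaks, the highest score was a median of 13.1 times the lowest (up to 61.1 times), and over the 148 with at least 2 FSH peaks it was a median of 8.98 times (up to 58.2 times). A peak at 3100 or above accompanied one under 200 in 51 domains for ASH1 and in 49 for FSH. The score is read on a log scale, so these are ratios of scores and not of bound protein. The ties at 3100 make these ratios lower limits wherever a tied peak was the highest.

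The highest ASH1 peak and the highest FSH peak overlapped in 142 of the 167 domains with both proteins. In 75 of the 142, one or both maxima were tied. Among the 88 domains without a tie in the scores as given, the highest peaks overlapped in 67. A peak above 3100 was counted there as the single highest even beside peaks tied at 3100, although their order is not known. Most peaks were shared and one wide peak could lie over several of the other protein, so that a large overlap of the maxima is partly given by the layout of the peaks. The overlap that such a layout gives by itself was not calculated.

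Within domains of at least 3 peaks and one highest peak, the highest ASH1 peak was the first or last of its protein in 60 of 109 domains (55.0%), and the highest FSH peak in 33 of 53 (62.3%). In these domains, first and last peaks made up an average of 47.2% of all peaks for ASH1, and 54.1% for FSH. The highest peak was thus at an end more often than the share of end peaks by 7.88 percentage points for ASH1, and by 8.16 for FSH. Here too, a peak above 3100 was counted as the highest even beside peaks tied at 3100. The lists do not give gene direction, and the ends could not be assigned to the start or the end of a gene.

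Of the ASH1 peaks in long domains, 655 of 709 (92.4%, 90.2 to 94.1%) shared 1 bp or more with an FSH peak, against 91.3% in domains of 4000 bp to under 8000 bp. Of the FSH peaks, 483 of 505 (95.6%, 93.5 to 97.1%) overlapped an ASH1 peak, against 94.5% in that class. Most ASH1 peaks without a partner were weak, while those of FSH ranged from weak to the highest scores. The 54 unshared ASH1 peaks had a median score of 112 and lay in 42 domains, and the 22 unshared FSH peaks had a median score of 343 and lay in 22 domains. Scores of 500 or above were held by 7 of these 54 peaks for ASH1 and by 10 of these 22 for FSH, and scores of 3100 or above by 1 ASH1 peak and 6 FSH peaks. Sharing was least common under a score of 100, where 47 of 70 ASH1 peaks (67.1%) and 26 of 35 FSH peaks (74.3%) had a partner.

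Several peaks of one protein could lie under a single wide peak of the other. Of the ASH1 peaks, 46 overlapped at least 2 FSH peaks, with at most 3. The reverse was more frequent, as 154 FSH peaks overlapped at least 2 ASH1 peaks, with at most 5.

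Where a domain ended, both proteins usually ended close together. In the 167 domains with both, there are 334 ends, and the outermost ASH1 base and the outermost FSH base lay a median of 117 bp apart (quartiles 40.25 and 571.75 bp). They were within 100 bp of each other at 150 ends (44.9%), within 500 bp at 243 (72.8%) and within 1000 bp at 280 (83.8%). The greatest distance was 20723 bp. ASH1 reached further out at 138 ends and FSH at 195, and they were equal at 1. ASH1 was the outer protein at both ends of 26 domains and FSH at both ends of 55.

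Each list alone would have given fewer long domains. When the ASH1 peaks alone were joined by the same rule, 114 stretches of at least 8000 bp remained, and with FSH peaks alone 121. Both lists gave one in 75 of the 172 domains, the ASH1 list only in 39, the FSH list only in 46 and neither list in 12. In the last 12 domains the length of 8000 bp was reached only with the peaks of both lists together, by bridged gaps or by ends that reached out further in one list.

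The longest domain ran over 39161 bp on 3L, at chr3L:8668285-8707445 in BDGP Release 5, the genome build of the lists. ASH1 covered 20.8% of it with 2 peaks of 5891 and 2274 bp and scores of 3100 and 1148. FSH covered 99.6% with 3 peaks of 20661, 11887 and 6459 bp and scores of 3100, 3100 and 3096. The first FSH peak, 20661 bp long, had no ASH1 peak in it, and both ASH1 peaks lay in the other 18.5 kb. The first and the next FSH peak were separated by only 17 bp.

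The X chromosome had the next longest domain, 26586 bp at chrX:12552684-12579269. It contained the longest peak among all members, an FSH peak of 24359 bp with a score of 165. A set of 5 ASH1 peaks covered 27.3% of the domain, with scores of 3100, 258, 926, 871 and 2674 from left to right. They lay at both ends of the domain, which left a stretch inside the long FSH peak without ASH1. The highest FSH score, 3100, belonged to a peak of 2178 bp at the left end, and the ASH1 peak that also scored 3100 lay inside it.

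On 2R the longest domain measured 25249 bp, at chr2R:6409522-6434770. ASH1 covered 99.8% and FSH 87.4%, and no gap was left. The ASH1 peaks were 7587, 14387 and 3217 bp long and scored 58.5, 179 and 1764. Those of FSH, 12831 and 9240 bp long, both scored 3100. Wide ASH1 peaks of low score here lay over strong FSH peaks.

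ASH1 alone occupied the next domain in length, 24724 bp at chr3L:3443340-3468063. Its ASH1 peaks were 15420 bp long with a score of 115 and 8572 bp long with a score of 586, and no FSH peak was called. Another domain of ASH1 alone, the 8048 bp peak at chr3L:3384047-3392094 with a score of 108, lay 51.2 kb to its left with no domain between them. A further 32.7 kb to the left, at chr3L:3333856-3351372, a domain of 17517 bp had 6 ASH1 peaks and 7 FSH peaks and similar cover by the proteins, 91.1% for ASH1 and 90.4% for FSH. The third domain of ASH1 alone, at chr3R:16134310-16145775, had peaks of 6095 and 5301 bp with scores of 3100 and 419, and was the only domain without FSH in which ASH1 reached 3100.

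FSH domains with little or no ASH1 formed the opposite group. On 3R, a domain of 22060 bp at chr3R:26556832-26578891 had a single ASH1 peak of 3780 bp with a score of 2179 and FSH peaks of 19475 and 2506 bp with scores of 1614 and 1562. ASH1 covered 17.1% and FSH 99.6%. A domain of 19113 bp at chr3L:16028210-16047322 had an FSH peak of 16205 bp without ASH1 and, at its right end, a peak of each protein. All 3 scored 3100, and the cover was 11.4% for ASH1 and 99.1% for FSH. At chr3R:4629744-4646989 the order was the same, with an FSH peak of 13558 bp free of ASH1 followed by a peak of each protein at the right end. All 3 again scored 3100.

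FSH was alone in 2 domains, and each was a single peak with a score of 3100. They measured 12820 bp, at chr3R:8836028-8848847, and 9219 bp, at chr3R:11827739-11836957. The 3 domains with ASH1 only had maxima of 3100, 586 and 108 within the ASH1 list.

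Among the 10 domains in which ASH1 covered under 50%, 4 lay on X, 4 on 3R and 2 on 3L. Of the 8 domains in which FSH covered under 50%, 3 lay on 3L, 2 on 2R, 2 on 3R and 1 on 2L. Where both proteins were present, the largest excess of ASH1 cover was at chr2R:11814507-11827842, with 86.1% for ASH1 and 44.9% for FSH. Its ASH1 peaks scored 3100, 1059 and 1040, and its only FSH peak, which scored 2364, overlapped the first of these. The domains at chr3R:5173894-5185806 (99.4% ASH1, 60.5% FSH) and chr3R:25921381-25931450 (82.6% ASH1, 44.7% FSH) came next.

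**Figure D4:**
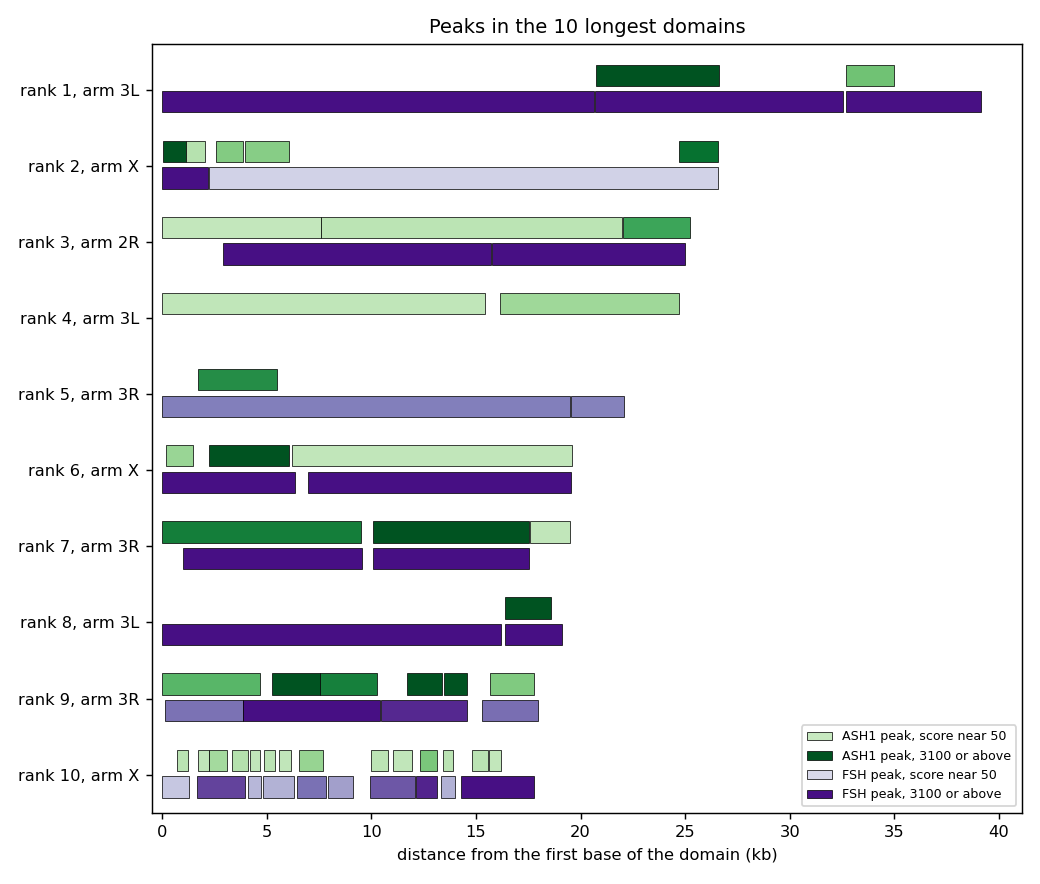
The 10 longest domains are drawn to scale from top to bottom, with distance from the first base in kb on the x axis and ASH1 peaks above FSH peaks in each row and darker shades for higher scores. The longest, of 39161 bp, is almost filled by 3 FSH peaks and has 2 ASH1 peaks, the domain of 24724 bp has ASH1 peaks only, and the domain of 17756 bp is divided into 14 ASH1 peaks and 10 FSH peaks.

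The remaining members of the 10 longest were bound along most of their length by both proteins. At chrX:8773114-8792696 (19583 bp), ASH1 covered 94.6% and FSH 96.8%. Its ASH1 peaks scored 645, 3100 and 89.4, and the last and weakest was also the longest, at 13381 bp. The FSH peaks, of 6366 and 12599 bp, both scored 3100. At chr3R:26623829-26643313 (19485 bp), ASH1 covered 96.6% with scores of 2452, 3100 and 89.0, and FSH covered 82.1% with both scores at 3100.

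At chr3R:12054308-12072274 (17967 bp) the peaks were shorter and almost all strong. The 6 ASH1 peaks scored 1413, 3100, 2412, 3113, 3100 and 961 from left to right, and the 4 FSH peaks scored 1796, 3100, 2750 and 1842. ASH1 covered 81.0% and FSH 95.2%. No peak in it exceeded 6545 bp, which made it the longest domain built from peaks under 8000 bp.

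The most finely divided domain was chrX:7583970-7601725, with 17756 bp and 24 peaks. Its 14 ASH1 peaks scored between 71.7 and 1032 and covered 54.8%, and its 10 FSH peaks scored between 364 and 3100 and covered 87.2%. All but 1 of the FSH peaks had an ASH1 partner. High peak number did not go with high ASH1 scores here, since no ASH1 peak came near 3100.

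Domains rich in peaks also occurred on the autosomes. At chr2L:9175026-9190745 (15720 bp), 9 ASH1 peaks scored between 75.5 and 3202 and 9 FSH peaks between 359 and 1861. All of them were shared, and the strongest ASH1 and FSH peaks lay over each other. At chr3R:9881488-9896957 (15470 bp), 9 ASH1 peaks reached no more than 1426 and 8 FSH peaks no more than 2838, and 4494 bp were free of both proteins, the most in any member. At chr2R:7072755-7086998 there were 10 ASH1 and 6 FSH peaks, and at chr3L:11277066-11290800 there were 10 and 7.

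In this stretch on 3L, the 10 ASH1 peaks scored between 125 and 1615, while FSH reached 3100 in 3 of its 7 peaks. A pair of overlapping weak peaks, 125 for ASH1 and 142 for FSH, lay inside the domain between stronger ones.

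The longest domain of 2L, at chr2L:8689757-8705491 (15735 bp), carried 5 ASH1 peaks with scores of 3100, 2310, 99.5, 3100 and 59.5 and 4 FSH peaks with scores of 3100, 946, 376 and 2421. It had strong binding of both proteins toward both ends and a weak ASH1 peak of 894 bp between them. The weakest ASH1 peak, at the right end, had no FSH partner.

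The domains with the highest joint cover were close to complete overlaps. At chr3R:11808552-11819420 a single peak of each protein, 10762 bp for ASH1 and 10869 bp for FSH, coincided over 99.0% of the domain. The ASH1 peak scored 3166, which is not ranked here against the tied value of 3100. The FSH peak scored 204, below the lower quartile of 480 for FSH peaks in long domains. At chr3R:5322276-5330880 one ASH1 peak of 8563 bp (1180) lay over 3 FSH peaks with scores of 3016, 388 and 310, and 98.3% was shared. At chr3L:15523194-15534126 pairs of peaks matched at 97.7% of the length, with scores of 2631 and 3100 for ASH1 and 3100 for both FSH peaks.

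Long peaks were not always strong ones. Of the 16 ASH1 peaks of 8000 bp or more, in 15 domains, 6 scored 3100 or above, 6 scored under 500 and 2 under 100. Of the 42 FSH peaks of that length, in 40 domains, 35 scored 3100 or above, 4 under 500 and 1 under 100. The lowest ASH1 score, 50.7, belonged to a peak of 8503 bp on 2L that lay under an FSH peak of 8437 bp scoring 3100. The lowest FSH score, 62.7, belonged to a peak of 15681 bp at chr3R:6206253-6221933, 91.8% of which lay under 4 ASH1 peaks. The other protein covered a median of 94.8% of a long ASH1 peak and 91.6% of a long FSH peak, and it covered under 50% of 3 of the long ASH1 peaks and of 9 of the long FSH peaks.

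The share of domains that were long was highest on 2L and lowest on X among the large arms. It was 2.76% on 2L (40 of 1447 domains, 2.04 to 3.74%), 1.78% on 2R (27 of 1518), 2.41% on 3L (37 of 1536), 2.59% on 3R (47 of 1817, 1.95 to 3.42%) and 1.36% on X (19 of 1395, 0.874 to 2.12%). The interval of X overlapped that of every other arm, but such overlap does not show that the shares are equal. A difference between arms was not tested.

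ASH1 took up less of a long domain on X than on the autosomes. It covered a median of 73.6% of a long domain on X (27.3 to 94.6%, n = 19) and FSH 91.4% (74.9 to 100%). On the autosomes the medians were 84.7% for ASH1 and 87.3% for FSH (n = 153). ASH1 had the wider cover in 3 of 19 long domains on X (15.8%), against 69 of 153 on the autosomes (45.1%).

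Scores and lengths of the ASH1 peaks were also lower on X. The share of ASH1 peaks at 3100 or above was 14.4% (15 of 104) on X and 24.3% (147 of 605) on the autosomes, and their median length was 1078 bp on X and 1640 bp on the autosomes. For the FSH peaks in long domains these values lay close together, with 44.8% at 3100 or above on X and 45.0% on the autosomes and median lengths of 2232 and 2219 bp. In domains of 4000 bp to under 8000 bp both proteins had lower median cover on X. There ASH1 covered a median of 64.5% on X (n = 89) and 84.1% on the autosomes (n = 509), and FSH 82.5% on X and 85.6% on the autosomes. Of the ASH1 peaks in that class, 15.52% on X and 24.05% on the autosomes scored 3100 or more. Their median lengths were 838 bp on X and 1410 bp on the autosomes. For the FSH peaks the shares were 29.95% on X and 34.34% on the autosomes, with median lengths of 1254 and 1685.5 bp. The lower ASH1 values on X were thus not particular to long domains, and in the shorter class FSH was lower on X too.

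The small chromosome 4 had 2 long domains among its 83 domains. At 149067 to 158228 (9162 bp), 5 ASH1 peaks scored 660, 1243, 1846, 3100 and 1560, and all 3 FSH peaks scored 3100. At 83679 to 91685 (8007 bp), 4 ASH1 peaks scored 2639, 60.7, 3100 and 3100 and 4 FSH peaks 1278, 87.1, 3100 and 3100. In the second of these the weak peaks of both proteins coincided, and so did the strong ones.

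Some long domains lay next to each other. The distance between neighbouring long domains on the same arm had a median of 383 kb over 166 pairs (quartiles 101 and 790 kb). In 16 pairs (9.64%) it was at most 20 kb, and 30 of the 172 domains (17.4%) belonged to such a pair. The closest neighbours were 1219 bp apart on X, 1350 bp apart on 2L (chr2L:8082258-8091111 and chr2L:8092462-8105334) and 1553 bp apart on 3R (chr3R:5902246-5916198 and chr3R:5917752-5926936). These would be one domain had the joining distance been a little larger.

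When neighbours within 20 kb were strung together, 13 groups had 2 long domains and 1 had 4. That group spanned 64.1 kb at chrX:13168616-13232734, and its long domains measured 11823, 16124, 8749 and 10086 bp, which is 73.0% of the span. With 3 shorter domains among them, 25 ASH1 peaks and 13 FSH peaks were called and 76.8% of the span was bound by either protein. FSH reached 3100 in all 4 long domains. ASH1 reached it in the first and the last, and had maxima of 1094 and 1029 in the inner ones.

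**Figure D5:**
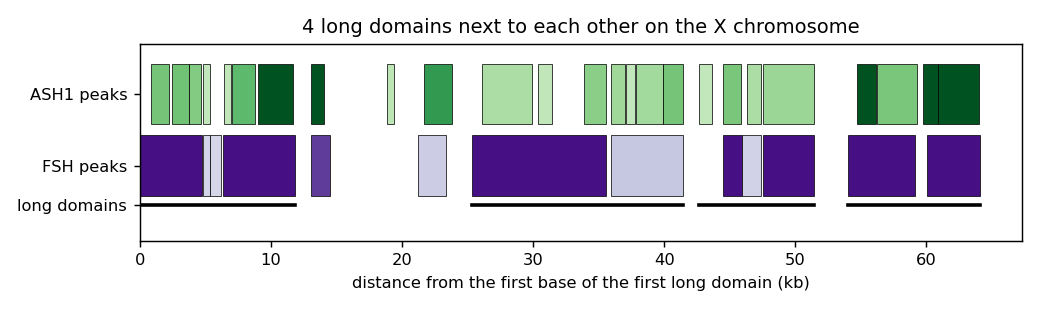
ASH1 peaks, FSH peaks and long domains are drawn over the 64.1 kb of the X chromosome where 4 long domains follow each other, with distance in kb from the first base of the first one on the x axis and darker shades for higher scores. The last 3 long domains are separated by 1219 and 2600 bp only, and 3 shorter domains lie between the first and the second.

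The limit of 8000 bp cuts through a continuous range of lengths. The 3 members just inside it measured 8048 bp, 8007 bp and 8006 bp. One is the ASH1 domain at chr3L:3384047-3392094 and another the one on chromosome 4. The shortest, at chr3L:14772292-14780297, had ASH1 scores of 1786, 132 and 3100 and FSH scores of 1863, 129 and 2327. Just outside it were domains of 7992 bp at chr3L:3191651-3199642 (97.9% ASH1, 76.4% FSH), 7955 bp at chr2R:15028735-15036689 (75.9% and 87.5%) and 7945 bp at chr2R:12044282-12052226 (69.2% and 87.7%). They had the same kind of cover as the members.

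Genes at the 172 long domains are not named here, because gene positions of the build used by the peak lists were not used.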

How the data were processed

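The samples were 4 ChIP-seq libraries of S2-DRSC cells, 2 antibodies each against ASH1 and FSH. The authors aligned reads of 36 bp to BDGP Release 5 with Bowtie (v0.12.7), merged the alignments of both antibodies against a protein with SAMtools (v0.1.9) and called peaks against input with MACS (v1.4.0) at a P value cut-off of 1e-05. Reads with several matches, up to a limit, were placed at one of them, and reads over the limit were dropped. The deposited lists give a start, an end and a score per peak. With no header to name its scale, the score was taken to be the caller's usual -10 log10 P: its lowest value was 50.02, and the cut-off corresponds to 50. The lists hold 0 columns of other samples.

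Peaks of both lists were joined with Python (v3.11.15), numpy (v2.4.6) and pandas (v2.3.3), and counts were checked with BEDTools (v2.31.1). Mitochondrial, unplaced and heterochromatic sequences were left out. Shares carry 95% Wilson intervals (scipy v1.17.1). The joining was tested on simulated peaks. The domains described singly were the 10 longest, the 3 with most peaks of each protein, the 3 with the highest and lowest joint cover, the 3 with the largest excess of either protein, those with a single protein, the longest of each arm and the 3 on either side of the length limit. The example gene of the study was not placed, since gene positions of this build were not used. A few others were chosen after their values were seen. The domains and rules were chosen with earlier results of these data known. Alternatives changed the joining distance, the length limit, the score limit, the sequences kept and the overlap.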

Additional observations from a re-analysis of the deposited data

Results flagged for a closer look

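Stretches of at least 8000 bp also formed on sequences that the long domains leave out, and that only the alternative with all sequences includes. On the mitochondrial sequence, 4 peaks (ASH1 and FSH, 2 each) joined into 1 stretch of 14955 bp, of which ASH1 covered 97.8% and FSH 35.9%. On the unplaced sequence U, 6 peaks joined into 15065 bp, from 5288421 to 5303485. Its 3 ASH1 peaks all scored 3100 and covered 88.4%, and its 3 FSH peaks scored at most 550 and covered 22.6%. Both stretches are given because they reach 8000 bp on sequences that the rule left out, so their absence from the long domains is no finding. No control sample is in the lists. In both, the cover by ASH1 was far above that by FSH, and their cause was not tested.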

How the results depend on the processing

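The 10 main results were recomputed under 7 alternatives, all chosen at the start. Of 62 values, 37 moved by less than their interval, or stayed within 1.5 times for a count, and 25 moved further. No direction could turn, because no result is a difference, and the cause of the shifts was not tested. With a joining distance of 500 bp, long domains took in 4.02% of ASH1 and 3.45% of FSH peaks, 95.0% of the ASH1 peaks were shared, 52.2% of the FSH peaks scored 3100 or more, and the median cover was 88.5% for ASH1 and 94.2% for FSH. With 2000 bp there were 353 long domains, holding 16.3% of ASH1 and 15.3% of FSH peaks, with 87.9% of ASH1 peaks shared, 30.6% of FSH peaks at 3100 or above and a median cover of 69.0% for ASH1 and 70.6% for FSH. A length limit of 6000 bp gave 340 domains with a median of 8027.5 bp, 11.9% of ASH1 and 10.8% of FSH peaks, and one of 10000 bp gave 95 with a median of 12085 bp, 4.04% of ASH1 and 3.71% of FSH peaks. With peaks of a score of at least 100 only, 6.14% of ASH1 peaks lay inside and 26.3% of them scored 3100 or more. When overlap had to reach 50% of both peaks, 51.9% of ASH1 and 72.9% of FSH peaks were shared. Keeping all sequences moved none of the results beyond these limits. No paired analysis was possible because each protein has 1 pooled list. Without read counts per region, the absence of a peak shows only that none was called.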
